A study of Drosophila melanogaster with 21 samples.

Results

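The mitotic kinesins examined here are 10 genes of Drosophila melanogaster, Klp61F, ncd, Klp10A, Klp67A, Klp3A, nod, cmet, cana, pav and sub. They were chosen by name as motors of the spindle and of cytokinesis, out of 17737 gene names in each table, and all 10 were found under these names. The cells are labelled S2, a cultured Drosophila line derived from hemocytes, the blood cells of the fly, and the study's RNA interference methods name S2[Cas9] cells, a line of S2 that expresses the bacterial Cas9 nuclease. Cells were transfected with double-stranded RNA (dsRNA) and messenger RNA was sequenced 4 days later. In a first experiment, dsUsh libraries (n = 3) came from cells treated with dsRNA against all isoforms of Ush, a zinc finger cofactor of GATA transcription factors. The dsMi-2 libraries (n = 3) came from cells treated with dsRNA against dMi-2, the ATPase of the NuRD chromatin remodelling complex, and dsEGFP libraries (n = 3) came from controls treated with dsRNA against EGFP. A separate experiment had dsUsh-B libraries (n = 4), with dsRNA against the Ush-B isoform, and its own dsEGFP libraries (n = 4). By those methods all groups, controls included, share the Cas9 background, and every library came from cells treated with a dsRNA. The study's methods speak of 3 independent transfections, and no label says how the 4 libraries per group of the Ush-B experiment arose, so p-values there measure only the spread between these libraries. The 4 ChIP samples of the study were not analysed here.

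Kinesins are ATP-driven motors that walk along microtubules or take their ends apart. During mitosis some push spindle poles apart or focus them, some shorten microtubules at their ends, some carry or hold chromosomes, and others bundle the overlapping microtubules of the central spindle where the cell will divide. Loss of individual mitotic kinesins in S2 and other Drosophila cells is known to give short, monopolar or disordered spindles or cells that fail to divide.

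Reads on genes ranged from 21366051 to 26101822 per library in the first experiment and from 46181614 to 59387417 in the Ush-B experiment. The lowest kinesin value in any library rested on 202 reads (nod in dsUsh replicate 3, a counting error of 7.04%), and that of the other 9 kinesins on at least 417 reads. Values are given as normalised counts, the reads on a gene divided by a size factor for its library, and groups were compared by log2 fold changes, on which a negative value is a lower level in the group named first. Of the hemocyte markers, srp stood at 2619.9 to 4572.2 and 7600.8 to 11013.1 normalised counts in the first and the Ush-B experiment, whereas NimC1 reached at most 3.0 and 6.1. The fat body markers Lsp2, Fbp1 and Yp1 were at or near 0, and the neuronal genes elav and brp were detected in every library. The neuronal marker nSyb was low, at 1.1 to 10.4 normalised counts in the first and 6.3 to 15.7 in the Ush-B experiment. Depletion was read here from the targeted transcripts. At the protein level, the study reports on Western blots that Ush bands were lost after dsRNA against Ush. The slower Ush band was depleted after dsRNA against Ush-B. Those blots are not said to be of the sequenced cells. In dsUsh libraries ush stood at 4089.1, 3810.3 and 3341.3 normalised counts (replicates 1, 2 and 3), against 5275.9, 4789.2 and 3929.1 in dsEGFP libraries. It was lower in each same-numbered pair, but the groups overlapped, and its log2 fold change of -0.31 ± 0.13 (SE) had an adjusted p of 0.0978 in limma, which adjusts over all genes tested, and of 0.00702 in a fit that also held the replicate number as a block. Mi-2 was at 1567.3, 1124.9 and 1152.2 in dsMi-2 libraries, against 5246.9, 5417.4 and 4272.5 in dsEGFP libraries (log2 fold change -1.97 ± 0.15, limma adjusted p 6.93e-05). In the Ush-B experiment the log2 fold change of ush was -0.11 ± 0.18 (limma adjusted p 0.927), and counts per gene do not tell its isoforms apart.

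Kinesin transcripts were lower after Ush depletion. Of the 10 kinesins, 6 were past the threshold, an adjusted p under 0.01, and all 6 fell, while 4.84% of the 9132 genes tested fell past it. The log2 fold changes of the 10 ranged from -0.87 to -0.05, with a median of -0.62, against a median of -0.01 over all genes tested. ncd, Klp67A and nod fell furthest among those called, to 54.7%, 56.1% and 56.1% of the control level, and Klp10A stayed at 96.9%. In 9 of the 10 kinesins every dsUsh library was below every dsEGFP library, as in 19.3% of all genes tested. In bulk RNA, fewer mitotic cells and less kinesin RNA per cell cannot be told apart. By flow cytometry on an earlier day, the study reports fewer cells with unreplicated DNA and more with replicated DNA after Ush depletion. It proposes that such cells do not enter mitosis or do not get through it. Those cells are not said to be the sequenced ones, and the part of the cell cycle in the kinesin values was not tested.

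**Figure D1:**
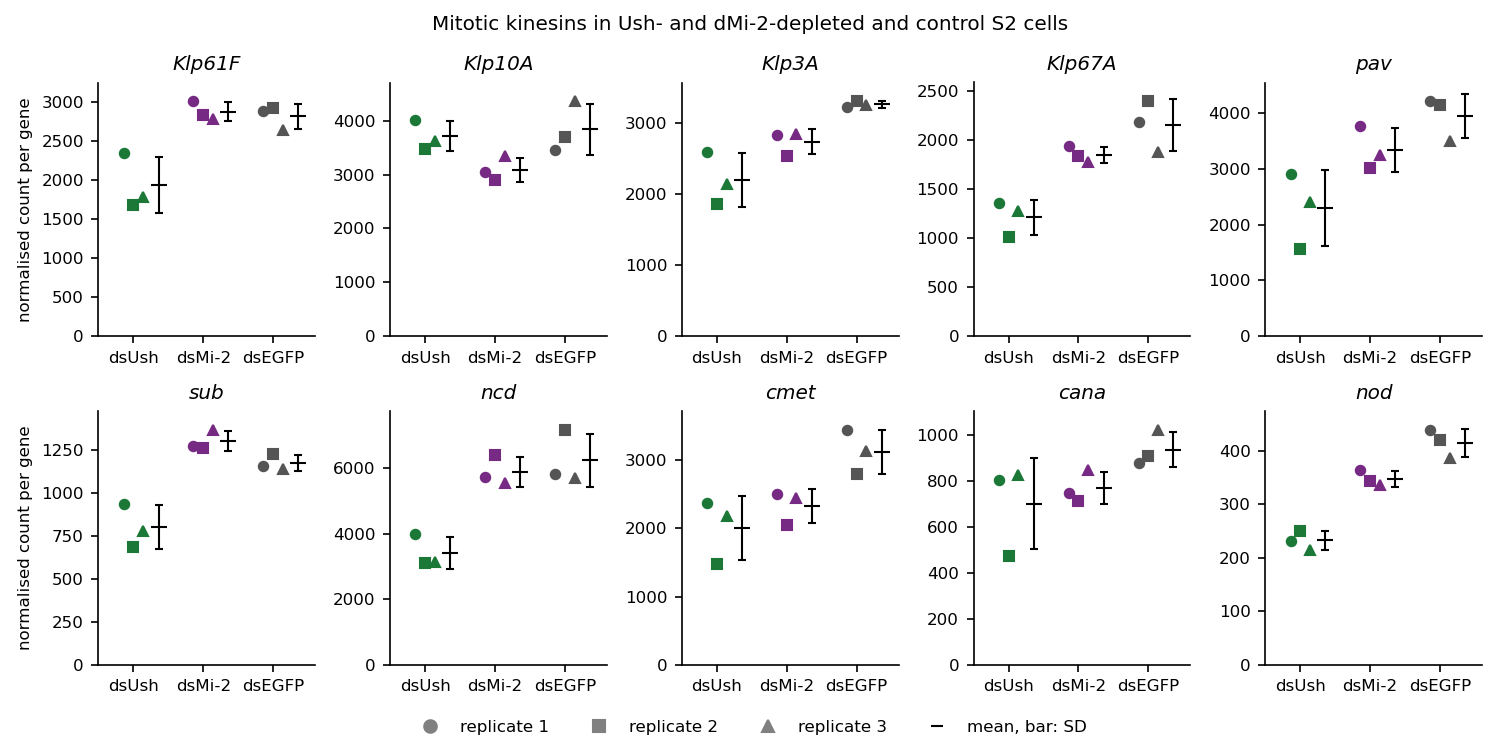
Normalised counts (y axis, from 0) of the 10 mitotic kinesins in each dsUsh, dsMi-2 and dsEGFP library (3 libraries per group, symbols mark the replicate number), with the group mean and SD to the right of the points. The dsUsh points lie below the dsEGFP points in 9 of the 10 panels, Klp10A being the other, and dsUsh replicate 2 is the lowest of its group in 9 panels.

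The first pair of motors acts on the spindle's shape. Klp61F is the bipolar kinesin that crosslinks and slides antiparallel microtubules and keeps the poles apart. It had 2345.8, 1677.3 and 1782.1 normalised counts in dsUsh libraries, against 2880.9, 2931.6 and 2637.5 in dsEGFP libraries. The highest dsUsh library was below the lowest control, and the log2 fold change was -0.56 ± 0.13 (limma adjusted p 0.00874). ncd, a motor that moves towards microtubule minus ends and focuses the poles, had 3986.7, 3104.6 and 3149.2 in dsUsh libraries, against 5832.4, 7160.3 and 5709.1 in dsEGFP libraries. The highest dsUsh library was well below the lowest control, a log2 fold change of -0.87 ± 0.13 (limma adjusted p 0.000876).

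The next pair takes apart microtubule ends, and here the 2 motors differed in their values. Klp67A, which shortens microtubules at their plus ends and sets spindle length, had 1354.4, 1010.2 and 1272.0 normalised counts in dsUsh libraries, against 2187.8, 2396.1 and 1878.2 in dsEGFP libraries. The groups were well apart, and Klp67A fell by 0.83 ± 0.13 on the log2 scale (limma adjusted p 0.00123). Klp10A, a depolymerase of microtubule ends at the poles, had 4017.9, 3478.5 and 3629.4 in dsUsh libraries, against 3459.1, 3697.4 and 4360.0 in dsEGFP libraries. Its groups overlapped, and its log2 fold change of -0.05 had a 95% confidence interval of -0.29 to 0.20 (limma adjusted p 0.79).

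Klp3A and nod bind chromosomes. Klp3A is a motor of chromosome arms that also works at the central spindle, and it had 2600.2, 1855.7 and 2142.8 normalised counts in dsUsh libraries, against 3222.9, 3307.7 and 3257.2 in dsEGFP libraries. The controls of Klp3A were the tightest among the 10 kinesins (coefficient of variation 1.31%), and its log2 fold change was -0.58 ± 0.12 (limma adjusted p 0.00557). nod, best known for holding chromosomes that have not recombined on the spindle of the oocyte, was the kinesin with the fewest counts. It had 230.9, 251.1 and 215.6 in dsUsh libraries, against 438.8, 419.8 and 386.1 in dsEGFP libraries. These groups did not overlap, the coefficient of variation was 7.67% in dsUsh libraries and 6.44% in dsEGFP libraries, and the log2 fold change was -0.83 ± 0.12 (limma adjusted p 0.000876).

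cmet and cana encode large kinesins of the kinetochore related to CENP-E. They are neighbours in the Release 6 gene table and related copies, so reads may have been assigned to the wrong one and their values are less certain. cmet had 2366.7, 1472.8 and 2183.4 normalised counts in dsUsh libraries, against 3442.8, 2794.1 and 3136.7 in dsEGFP libraries, with no overlap. Its log2 fold change of -0.66 ± 0.17 missed the threshold (limma adjusted p 0.0184). With the replicate number as a block it passed (adjusted p 0.000863). cana had 803.9, 473.9 and 826.0 in dsUsh libraries, against 877.7, 907.4 and 1021.7 in dsEGFP libraries. The 2 higher dsUsh libraries came close to the controls, and the log2 fold change of -0.46 ± 0.20 was not past the threshold (limma adjusted p 0.117, and 0.0387 with the block).

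The last pair works at the midzone. pav forms centralspindlin with Tum and is needed for cytokinesis. It had 2915.4, 1568.2 and 2408.6 normalised counts in dsUsh libraries, against 4217.3, 4144.3 and 3497.2 in dsEGFP libraries. The groups did not overlap, but pav had the widest spread of the 10 kinesins among dsUsh libraries (coefficient of variation 29.6%), and its log2 fold change of -0.82 ± 0.20 had a limma adjusted p of 0.0133, or 0.00377 with the block. sub, a related motor of the midzone that also organises the spindle of the oocyte, had 939.4, 684.1 and 781.2 in dsUsh libraries, against 1160.0, 1228.3 and 1142.3 in dsEGFP libraries. It fell in all 3 libraries below the lowest control (log2 fold change -0.57 ± 0.12, limma adjusted p 0.00664).

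The size of the difference varied between replicates more than the direction did. Between same-numbered libraries the median log2 ratio of the 10 kinesins was -0.42, -0.88 and -0.55 in replicates 1, 2 and 3, and the medians over all genes tested were between 0.00 and 0.01. Replicate 2 was the lowest dsUsh library for 9 kinesins, with nod as the exception, and replicate 1 the highest for 8. Without dsUsh replicate 2 the median log2 fold change was -0.46. ncd, Klp67A and nod remained past the threshold in each of the 9 fits that left out 1 library. Klp61F remained so in 1 of the 9, Klp3A in 3 and sub in 1. The number of kinesins called was 3 without any one of the dsEGFP libraries, without dsUsh replicate 2 or 3 and without dsMi-2 replicate 1, and it was 4 without dsMi-2 replicate 2 or 3 and 7 without dsUsh replicate 1. It was also 3, the same ncd, Klp67A and nod, in a fit of the dsUsh and dsEGFP libraries alone. The number of all genes that fell changed as well. It was 204 to 363 in the fits without 1 library and 216 in the 2-group fit, against 442 in the main fit. With the replicate number as a block 8 kinesins fell, pav and cmet in addition, where 11.1% of all genes tested fell.

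Other measures moved with Ush depletion. The summed level of the 8 hemocyte markers was 2897.3 to 3281.7 normalised counts in dsUsh libraries, against 4656.1 to 5506.5 in dsEGFP libraries, with none of the 8 at 0 in a whole group. Of 7 of them tested, 6 were below 0, with 3 called lower and 1 higher. The 10 most abundant genes held 5.89% to 6.41% of reads in dsUsh libraries, against 7.03% to 9.05% in dsEGFP libraries. The summed level of the 3 muscle markers was 46.9 to 65.1 in dsUsh libraries, against 29.2 to 43.7 in dsEGFP libraries, but the 2 that were tested had log2 fold changes of 0.00 and 2.67, and neither was called. Their part in the kinesin values was not tested. Summed neuronal and germ line markers overlapped between the 2 groups.

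None of the 10 kinesins changed past the threshold after dMi-2 depletion, where 6.29% of all genes tested did (1.95% lower and 4.34% higher). By edgeR, by DESeq2 and with the block the count was also 0 (with the block 5.37% of all genes were lower and 7.63% higher). Of all genes, edgeR called 160 lower and 368 higher of 9132, and DESeq2 412 lower and 670 higher of 13669. In limma 2 kinesins, Klp10A and cmet, had an unadjusted p under 0.05, as did 27.4% of all genes tested. The log2 fold changes ranged from -0.42 to 0.15 with a median of -0.25, against -0.01 over all genes tested. All dsMi-2 libraries were below all dsEGFP libraries for 5 kinesins (Klp10A, Klp3A, cmet, cana and nod; 15.5% of all genes) and above them for 1, sub (16.5% of all genes).

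Klp10A had 3038.6, 2898.3 and 3336.6 normalised counts in dsMi-2 libraries, all below the lowest dsEGFP library at 3459.1. Its log2 fold change was -0.31 ± 0.11 (limma adjusted p 0.10). cmet had 2507.1, 2047.9 and 2441.8 in dsMi-2 libraries, against the control values of 2794.1 to 3442.8. That was a log2 fold change of -0.42 ± 0.17 (limma adjusted p 0.152, and 0.0133 with the block). The midzone motor sub had 1276.3, 1265.2 and 1367.6 in dsMi-2 libraries, above its control range of 1142.3 to 1228.3, with a log2 fold change of 0.15 ± 0.12 (limma adjusted p 0.495). Klp3A, nod and cana had 2537.3 to 2843.3, 336.3 to 364.7 and 714.1 to 849.0 in dsMi-2 libraries, each range below that of its controls. Their log2 fold changes were -0.25, -0.25 and -0.28.

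The other 4 kinesins overlapped between dsMi-2 and dsEGFP libraries. Klp61F had 3011.4, 2837.7 and 2779.0 normalised counts in dsMi-2 libraries, a log2 fold change of 0.03 with a 95% confidence interval of -0.25 to 0.31. ncd had 5731.9, 6410.4 and 5540.5 in dsMi-2 libraries (-0.08, interval -0.37 to 0.22). Klp67A and pav had 1775.0 to 1935.8 and 3010.7 to 3767.9, with log2 fold changes of -0.21 (interval -0.51 to 0.08) and -0.24 (-0.70 to 0.21). For these 4 kinesins the intervals leave out the log2 fold change measured in dsUsh libraries. Those of cmet (-0.81 to -0.03) and cana (-0.73 to 0.17) hold it. The summed level of the hemocyte markers was 5996.6 to 8542.9 in dsMi-2 libraries, against 4656.1 to 5506.5 in dsEGFP libraries. The single markers went both ways, with 3 of 7 tested above 0 and 4 below, log2 fold changes from -3.77 to 3.25, 2 called higher and 1 lower. The sum of the 4 germ line markers was 369.4 to 625.6 in dsMi-2 libraries, against 107.7 to 260.6 in dsEGFP libraries, with all 3 tested above 0 and none called. Their part in the kinesin values was not tested.

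The comparisons of dsUsh and of dsMi-2 libraries with dsEGFP share their 3 control libraries, so the 2 depletions were also compared directly. Of the 10 kinesins, 5 were lower in dsUsh than in dsMi-2 libraries past the threshold, where 8.31% of all genes tested were lower. These were ncd (-0.79 ± 0.13 on the log2 scale, limma adjusted p 0.00123), sub (-0.71 ± 0.12, 0.00155), Klp67A (-0.62 ± 0.13, 0.00506), Klp61F (-0.59 ± 0.13, 0.00528) and nod (-0.58 ± 0.12, 0.00527). These 5 and pav were below in every dsUsh library, as were 25.1% of all genes tested. The median log2 difference of the 10 kinesins was -0.58, against -0.01 over all genes tested.

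pav was at 1568.2 to 2915.4 in dsUsh libraries, against 3010.7 to 3767.9 normalised counts in dsMi-2 libraries and missed the threshold (log2 difference -0.58 ± 0.20, limma adjusted p 0.0484). Klp3A, cmet and cana overlapped between the 2 depletions, with log2 differences of -0.33, -0.24 and -0.17. Klp10A was the one kinesin above in every dsUsh library, at 3478.5 to 4017.9, against 2898.3 to 3336.6 in dsMi-2 libraries (log2 difference 0.26 ± 0.11, limma adjusted p 0.0905). Of all genes tested 27.0% lay above in every dsUsh library. ncd and sub stayed past the threshold in all 9 fits that left out 1 library, and Klp61F, Klp67A and nod in 4 of 9. The number called was 5 without any one dsEGFP library, 4 without dsUsh replicate 1, 3 without dsUsh replicate 2, and 2 without dsUsh replicate 3 or any one dsMi-2 library. Of all genes, 436 to 826 were lower in these fits, against 759 in the main fit. The median difference was -0.41 without dsUsh replicate 2.

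**Figure D2:**
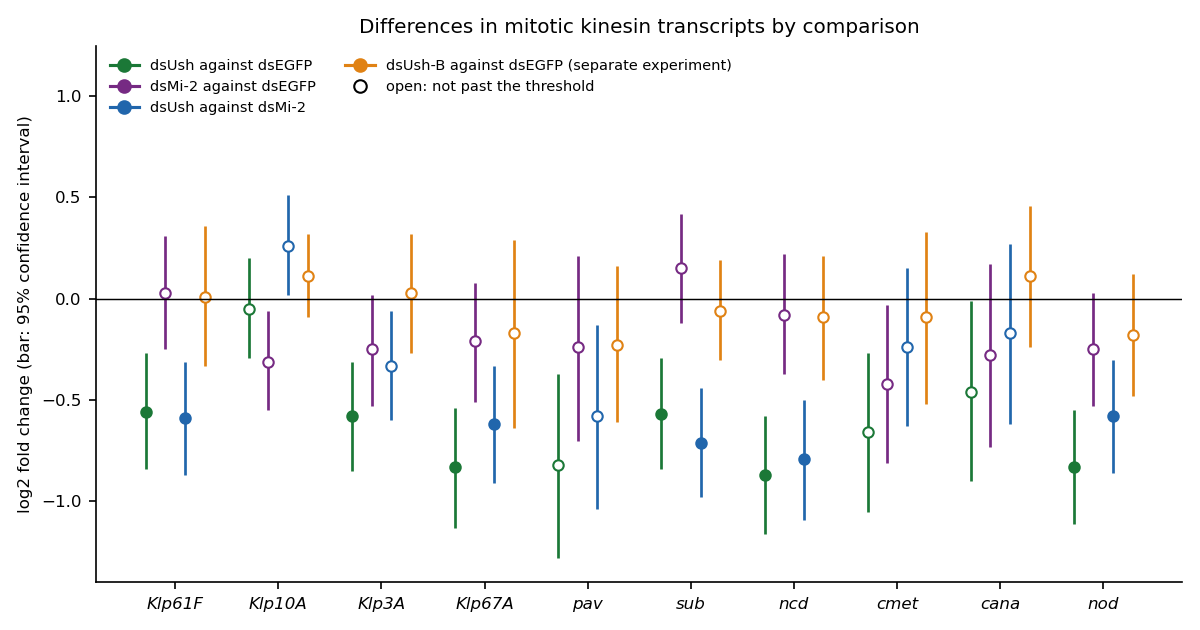
Log2 fold changes (y axis) of the 10 mitotic kinesins with 95% confidence intervals from limma in 4 comparisons, filled where the adjusted p was past the threshold (under 0.01 in the first experiment, under 0.05 in the Ush-B experiment). The filled points, 6 for dsUsh against dsEGFP and 5 for dsUsh against dsMi-2, all lie below 0, and all points for dsMi-2 and dsUsh-B against their controls are open.

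Depletion of the Ush-B isoform was compared with its own controls, in a separate table that was scaled by itself. None of the 10 kinesins passed an adjusted p of 0.05 in limma, and 1 of 9648 genes tested did (0.0104%). The count was 0 by edgeR and by DESeq2 as well. Of all genes, edgeR called 0, while DESeq2 called 37 lower and 51 higher of 14297. No kinesin had an unadjusted p under 0.05 in limma, as 7.09% of all genes tested had. The log2 fold changes ranged from -0.23 (pav) to 0.11 (Klp10A and cana), with a median of -0.07, against 0.00 over all genes tested. dsUsh-B and dsEGFP libraries overlapped for every kinesin, whereas 1.79% of all genes tested were below and 2.23% above without overlap.

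The 95% confidence intervals set how large a change could have gone unseen. ncd had 11476.5, 10777.0, 11064.1 and 11886.3 normalised counts in dsUsh-B replicates 1 to 4, against 10587.2, 11347.1, 16328.8 and 10745.8 in dsEGFP replicates 1 to 4. All but one of the 8 libraries lay between 10587.2 and 11886.3. The log2 fold change of ncd was -0.09, with an interval of -0.40 to 0.21. Klp67A had 4065.9, 4226.7, 4497.9 and 5739.6 in dsUsh-B libraries, against 4437.0, 4293.2, 8049.5 and 4669.0 in dsEGFP libraries. Here too the third control stood far above the rest, and the interval of -0.64 to 0.29 around -0.17 was wide. nod had 810.0, 835.3, 663.6 and 661.0 in dsUsh-B libraries, against 811.3, 885.7, 955.2 and 713.3 in dsEGFP libraries. Its log2 fold change was -0.18, with an interval of -0.48 to 0.12. Klp10A had 10208.1, 10908.4, 9770.1 and 11075.7 in dsUsh-B libraries, against 8994.2, 9975.8, 11059.8 and 8889.6 in dsEGFP libraries, an interval of -0.09 to 0.32 around 0.11.

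The groups of the other kinesins overlapped too, although pav had the lowest log2 fold change of the 10. It had 7116.8 to 8374.3 normalised counts in dsUsh-B libraries, against 7129.7 to 13292.3 in dsEGFP libraries (log2 fold change -0.23, interval -0.61 to 0.16). cmet had 6146.3 to 8595.2 in dsUsh-B libraries, against 5756.1 to 11131.7 in dsEGFP libraries. cana had 1747.1 to 2678.6 in dsUsh-B libraries, against 1599.6 to 2319.8 in dsEGFP libraries. These ranges overlapped widely. Klp61F averaged 6409.4 ± 852.0 in dsUsh-B libraries and 6405.2 ± 1392.1 in dsEGFP libraries (SD, n = 4 each). Klp3A averaged 7622.8 ± 752.9 in dsUsh-B libraries and 7551.3 ± 1367.3 in dsEGFP libraries. The midzone motor sub averaged 2008.6 ± 150.7 in dsUsh-B libraries and 2097.5 ± 272.3 in dsEGFP libraries. None of these differences exceeded the spread between libraries.

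One control library set much of that spread. dsEGFP replicate 3 was the highest control for 9 of the 10 kinesins, cana being the other, and stood a median of 0.51 on the log2 scale above the other controls, where the median over all genes tested was 0.00. In the same library mitochondrial large ribosomal RNA held 3.37% of reads, the lowest share of the 8 libraries (up to 5.47%), and the summed hemocyte markers were at 16767.6 normalised counts, the highest. Without dsEGFP replicate 3 the median log2 fold change was 0.06 and still no kinesin was called. Replicates 1 and 2 alone gave a median of 0.00 and replicates 3 and 4 one of -0.12. The summed hemocyte markers were 8414.3 to 9270.3 in dsUsh-B libraries, against 10810.7 to 16767.6 in dsEGFP libraries, with 6 of 7 tested below 0 and none called, and their part in the kinesin values was not tested.

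**Figure D3:**
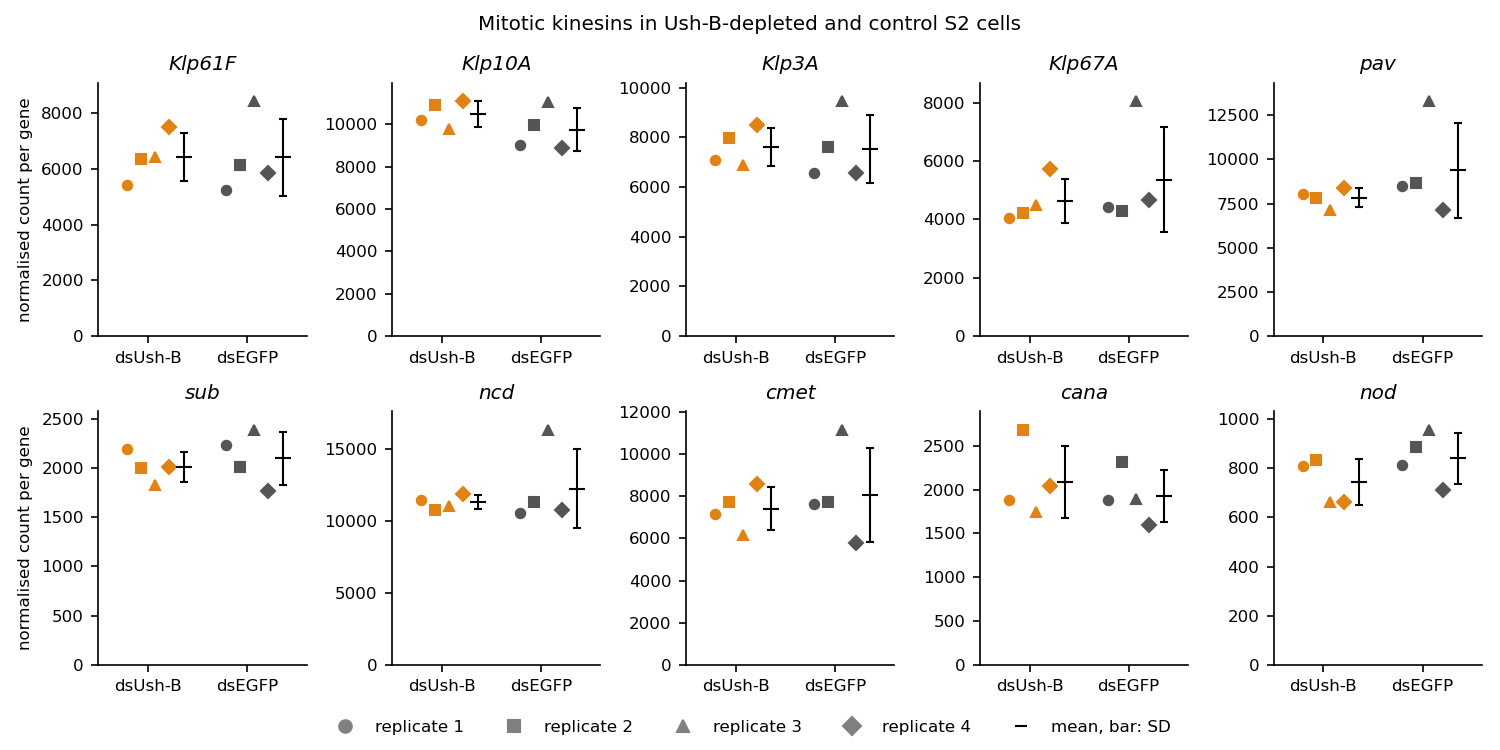
Normalised counts (y axis, from 0) of the 10 mitotic kinesins in each dsUsh-B and dsEGFP library of the separate experiment (4 libraries per group, symbols mark the replicate number), with the group mean and SD to the right of the points. The groups overlap in all 10 panels, and the triangle of dsEGFP replicate 3 is the highest control in 9 of them.

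Among other kinesin family genes most values lay above 0 after Ush depletion, but few were called. Of 18 such genes, which include transport motors, their light chain and adaptor and a few further spindle kinesins, 12 had enough counts to be tested in the first experiment. Of these 2 rose and 0 fell in dsUsh libraries, and 2 of 12 is near the 12.3% of all genes that rose. The median log2 fold change was 0.29, and 11 of 12 were above 0, while 50.8% of all genes tested were below 0. Khc-73, a motor linked to spindle orientation and endosomes, averaged 3952.6 ± 371.1 normalised counts in dsUsh libraries and 1847.8 ± 79.4 in dsEGFP libraries (SD, n = 3 each), a log2 fold change of 1.09 ± 0.09 (limma adjusted p 2.4e-05). Klp68D, a subunit of the heterotrimeric transport kinesin, averaged 1689.4 ± 291.9 in dsUsh libraries and 918.3 ± 84.6 in dsEGFP libraries (0.87 ± 0.13, adjusted p 0.000988). With the block 5 of the 12 rose and 1 fell, where 17.4% of all genes rose and 11.1% fell. After dMi-2 depletion none of the 12 was called (1 fell with the block, where 5.37% of all genes fell), nor was any of 13 tested after Ush-B depletion. Against dsMi-2 libraries, 4 were higher in dsUsh libraries (14.5% of all genes were). These were unc-104, a motor of synaptic vesicle transport (log2 difference 1.85 ± 0.21), Khc-73 (1.10 ± 0.09), Klp68D (1.07 ± 0.13) and Klp64D, its partner subunit (0.45 ± 0.09). Klp64D stayed past the threshold in 3 of the 9 fits without 1 library, and the others in all 9.

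The partners of pav and sub at the midzone and in cytokinesis were set beside them. Of 18 genes listed, 14 were matched and tested, since the names of 4 septin genes were not found in the tables. After Ush depletion 8 of the 14 fell and 0 rose (4.84% of all genes fell), with a median log2 fold change of -0.64. tum, the other component of centralspindlin, averaged 1854.9 ± 395.9 normalised counts in dsUsh libraries and 3593.3 ± 318.5 in dsEGFP libraries (log2 fold change -0.97 ± 0.15, limma adjusted p 0.00107). pbl, the exchange factor that activates Rho1 at the cleavage furrow, averaged 1267.0 ± 77.9 in dsUsh libraries and 2486.6 ± 163.8 in dsEGFP libraries (-0.97 ± 0.09, adjusted p 4.05e-05). The kinases polo and aurB, both regulators of the midzone motors, had log2 fold changes of -0.95 ± 0.14 and -0.90 ± 0.14. Det, the survivin of the chromosomal passenger complex, had -0.90 ± 0.13. These 5 stayed past the threshold in all 9 fits without 1 library, and the others called in 6, 5 and 1 of the 9. After dMi-2 depletion 1 of the 14 was called lower, where 1.95% of all genes were. This was Rho1, which drives the contractile ring, with -0.61 ± 0.11 (limma adjusted p 0.00681). Its call was lost in each of the 9 fits without 1 library. After Ush-B depletion none was called, and the median was -0.09. Directly between the depletions 7 of the 14 were lower and 2 higher in dsUsh libraries, where 8.31% of all genes were lower and 14.5% higher, and with the block 8 were lower and 3 higher (15.0% and 20.3% of all genes). The lower ones were led by pbl (-1.18 ± 0.09) and the chromosomal passenger gene borr (-1.13 ± 0.16). Without 1 library the 7 lower genes were called in 3 to 9 of the 9 fits, and the 2 higher in 5 and 4.

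Another list held 30 genes of spindle assembly, among them 1 motor, the dynein heavy chain Dhc64C. Of the 30, 7 fell and 0 rose after Ush depletion (4.84% of all genes tested fell and 12.3% rose), with a median log2 fold change of -0.30. asp, which focuses microtubules at the poles, averaged 1049.1 ± 241.8 normalised counts in dsUsh libraries and 2033.8 ± 90.8 in dsEGFP libraries (log2 fold change -0.98 ± 0.17, limma adjusted p 0.00197). The augmin subunits msd5 and dgt4 had -0.94 ± 0.13 and -0.72 ± 0.14, the centrosomal cnn -0.89 ± 0.14 and mars -0.82 ± 0.11. Without 1 library, asp, msd5, cnn and mars were called in all 9 fits and dgt4 in 6. The other called genes held in 9 and 2 of the 9. With the block 10 of the 30 fell and 4 rose, where 11.1% of all genes fell and 17.4% rose. None was called after dMi-2 or Ush-B depletion in limma (with the block 3 fell after dMi-2 depletion, where 5.37% of all genes fell). Between the depletions 4 were lower and 4 higher in dsUsh libraries, where 8.31% of all genes were lower and 14.5% higher, so that the share of higher genes was near that of all genes. With the block 8 were lower and 6 higher, where 15.0% of all genes were lower and 20.3% higher. Grip75 of the gamma-tubulin ring complex had 0.92 ± 0.15 and the microtubule polymerase msps 0.67 ± 0.14. They stayed past the threshold in 9 and 5 of the 9 fits without 1 library.

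Tubulins, the track of these motors, behaved by gene. Of 10 genes, 8 were tested in the first experiment. Past the threshold 2 of the 8 rose in dsUsh libraries and 2 in dsMi-2 libraries, where 12.3% and 4.34% of all genes rose. betaTub97EF had 1541.0, 2094.4 and 1535.6 normalised counts in dsUsh libraries and 143.5, 58.7 and 54.6 in dsMi-2 libraries, against 18.1, 9.4 and 7.5 in dsEGFP libraries. It rose in both depletions, by log2 fold changes of 7.17 ± 0.41 and 2.72 ± 0.41 (limma adjusted p 2.82e-06 and 0.00223). betaTub60D averaged 44846.4 ± 5210.6 in dsUsh libraries and 11777.8 ± 792.1 in dsEGFP libraries (1.92 ± 0.14, adjusted p 1.15e-05). gammaTub37C, known as the maternal gamma-tubulin, had 161.0, 211.9 and 169.6 in dsMi-2 libraries, against 6.3, 5.2 and 3.2 in dsEGFP libraries (4.97 ± 0.32, adjusted p 3.99e-05). No tubulin fell past the threshold against dsEGFP, and none was called after Ush-B depletion. With the block 2 fell in dsUsh libraries, where 11.1% of all genes fell.

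**Figure D4:**
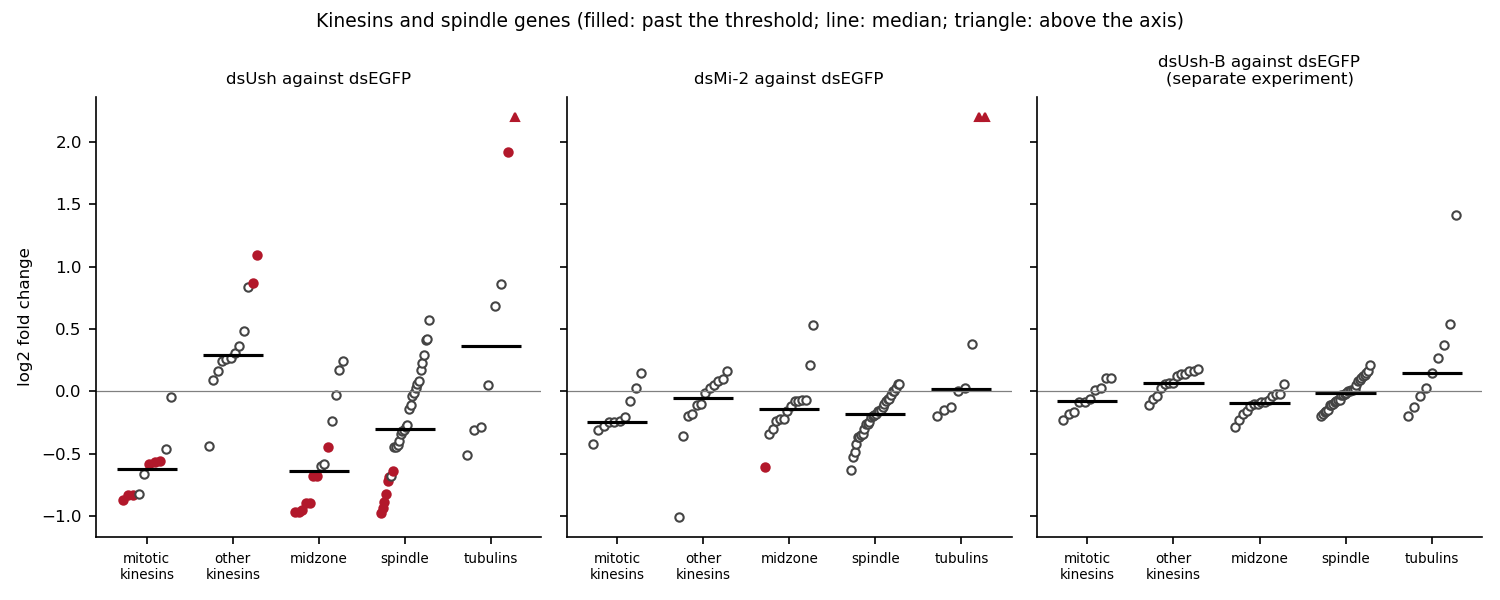
Log2 fold changes (y axis) of the 10 mitotic kinesins, other kinesin family genes, midzone and cytokinesis partners, spindle assembly partners and tubulins in dsUsh, dsMi-2 and dsUsh-B libraries, each against its own dsEGFP libraries (1 point per gene tested, filled past the threshold, black line at the median, triangle for values above the axis). In dsUsh libraries the mitotic kinesins and midzone partners have medians of -0.62 and -0.64 and the other kinesins one of 0.29, and in dsUsh-B libraries no point is filled.

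Across all 17 libraries the 10 kinesins differed in how closely each followed the rest. Each gene's log2 levels were centred on the mean of its own experiment, and the distance was the root mean square difference from the mean of the other 9 kinesins. Klp3A was closest, at 0.065 on the log2 scale, and Klp10A and cana were farthest, at 0.278 and 0.231. The others lay between 0.133 (Klp61F) and 0.184 (nod). Of 6989 genes outside the list with a mean of at least 50 in both experiments, the nearest to the mean profile of the 10 were glu (0.073), Gnf1 (0.077), sti (0.078), mad2 (0.078) and SMC2 (0.081), against a median of 0.326 over all of them. glu and SMC2 are condensin subunits, mad2 a spindle checkpoint gene, Gnf1 a subunit of the clamp loader of DNA replication and sti the citron kinase of cytokinesis. The profile included the dsUsh and dsEGFP libraries, so lower levels in dsUsh libraries follow from how these genes were chosen. Their log2 fold changes there were -0.71 for glu, -0.57 for SMC2, -0.63 for mad2, -0.51 for Gnf1 and -0.68 for sti. This likeness is a description over libraries that share groups and experiments.

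Of the 10 kinesins 7 overlap another gene in the Release 6 gene table (Klp3A, pav and cana do not). Whether reads were counted by strand is not given in the sources used here, so reads of overlapping genes may not be told apart. Most of the overlapping genes had far fewer counts than the kinesin. CG9194, which overlaps Klp61F, reached at most 743.9 normalised counts in the first experiment and CG1561, which overlaps nod, at most 36.2. The genes CG7789 and ca, which overlap ncd, had 1008.9 to 1364.8 and 1660.5 to 2182.1, with log2 fold changes of 0.12 and -0.26 in dsUsh libraries, against -0.87 for ncd.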

How the data were processed

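Poly(A) RNA of 17 S2 libraries was sequenced as single reads from a stranded kit. The authors aligned reads to the Drosophila transcriptome with STAR, counted them per gene with featureCounts (1.6.2 per the submitters' processing notes) and divided them by DESeq2 (2.11.40.2) size factors, and deposited these signal values, called normalised counts, in 2 tables scaled separately. The study's methods name later versions of featureCounts and DESeq2 than these notes do. Genome build, annotation and strand setting are not given in the sources used here. The authors' deposited comparison tables, which hold log2 fold changes and p-values, were not used. In every library 100% of values were whole multiples of the smallest step (tolerance 0.05), so reads could be recovered.

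Genes with a mean of at least 5 were tested with limma 3.58.1 (R 4.3.3) on log2 of the normalised count plus 1, so fold changes of low genes are understated, with trended empirical Bayes moderation, two-sided, with Benjamini-Hochberg adjustment over all genes tested. The first table was fitted on all 9 libraries, which share 1 estimate of spread, and the Ush-B table on its 8. Thresholds were those of the study, 0.01 and 0.05. Alternatives were edgeR 4.0.16 and DESeq2 1.42.0 on recovered reads, other scalings, filters and pseudocounts, fits of 2 groups, a replicate block and each library left out. In the first table same-numbered libraries deviated together (correlations 0.239 to 0.569 over 9 pairs, against -0.413 to 0.0049 for other numbers). The numbers were therefore taken to pair the libraries there, a reading from the data that no label states. Deviations were centred within each group, so positive values for like numbers push those for other numbers below 0. The main fit and the fits without 1 library held no block, so their p-values do not use this pairing. The kinesins, the other lists, the tests and the alternatives were chosen with earlier results of these data known. Named genes were all kinesins, ush and Mi-2, at most 5 called genes of each other list per comparison with the largest change, and the 5 nearest profiles. Gene names were matched to a RefSeq Release 6 table (17682 of 17737). A comparison of levels per kilobase between kinesins was not run, since lengths of the annotation used were not at hand. Scripts were tested on simulated counts.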

Additional observations from a re-analysis of the deposited data

Results flagged for a closer look

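Among the 4 controls for Ush-B depletion, dsEGFP replicate 3 lay far from the other 3 libraries for 2 kinesins, Klp67A at 8049.5 normalised counts and ncd at 16328.8. The gap to the nearest other control was 0.9 and 0.868 of the whole range, above Dixon's limit for groups of this size. Of 20 groups examined 2 stood out in this way, both through the same library. The kinesins share their libraries, so these groups are not independent and no chance rate can be set beside the count. In 5 kinesins the difference from the shared controls differed between Ush and dMi-2 depletion when tested directly in limma, with log2 differences of -0.59 for Klp61F, -0.62 for Klp67A, -0.71 for sub, -0.79 for ncd and -0.58 for nod.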

How the results depend on the processing

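Between dsUsh and dsEGFP libraries, the number of kinesins called lower was 3 without the trend and 3 with the 2 groups alone. It was 5 with edgeR or without a filter, 7 with quantile normalisation, and 8 with DESeq2 or with the replicate block. A threshold of 0.05 also gave 8, but the number of all genes past it was not taken. Of all 9132 genes, 331 were lower without the trend, 216 with the 2 groups alone and 413 with edgeR. There were 992 with quantile normalisation and 1012 with the block, against 442 in the main fit. Of 13669 genes, 384 were lower without a filter and 736 with DESeq2. Leaving out 1 library gave 3 to 7 kinesins (204 to 363 of all genes) and a median log2 fold change of -0.75 to -0.46. Directly between dsUsh and dsMi-2 libraries 3 kinesins were called lower without the trend and 3 with the 2 groups alone. Of all genes, 645 and 739 were lower there, against 759 in the main fit. Leaving out 1 library gave 2 to 5 kinesins (436 to 826 of all genes) and medians of -0.64 to -0.41. Medians without 1 library were -0.27 to -0.20 for dsMi-2 and -0.14 to 0.06 for dsUsh-B, with 0 kinesins called. Fits with fewer libraries have fewer degrees of freedom, and otherwise the cause was not tested.

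Signs turned for some values that were not called. In dsMi-2 libraries ncd was at 0.01 after quantile normalisation, and in dsUsh-B libraries Klp3A was at -0.0029 after quantile normalisation and Klp61F at -0.0014 with edgeR. Without 1 library, Klp10A ranged from -0.12 to 0.05 in dsUsh libraries, Klp61F from -0.02 to 0.06 and ncd from -0.14 to 0.03 in dsMi-2 libraries, and cana from -0.31 to 0.09 between the depletions. In dsUsh-B libraries the ranges were -0.07 to 0.15 for Klp61F, -0.04 to 0.14 for Klp3A, -0.28 to 0.04 for Klp67A, -0.14 to 0.0089 for sub, -0.16 to 0.05 for ncd, -0.24 to 0.08 for cmet and -0.02 to 0.21 for cana.

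Quantile normalisation shifted the median of all genes to -0.19 in dsUsh libraries and to -0.12 against dsMi-2 libraries, and the calls over all genes in dsUsh libraries to 992 lower and 921 higher, against 442 and 1125. In the Ush-B experiment same-numbered libraries did not all deviate together (correlations -0.0486 to 0.66 over 4 pairs, against -0.607 to 0.762 for other numbers), so there they share only a number. Replicates 1 and 2 correlated best with their own number across the groups, but dsUsh-B replicate 3 did so with dsEGFP replicate 4 (0.762) and dsUsh-B replicate 4 with dsEGFP replicate 3 (0.516), a hint from the data and not from the design. With the replicate block 0 kinesins were called, at a median of -0.07. In the first experiment the block changed no kinesin call other than those of pav and cmet. Depth limits nod most, as the kinesin with the fewest reads.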

Other observations

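Genes that overlap the kinesins had values of their own. CG9194, which overlaps Klp61F, had a log2 fold change of 1.87 in dsMi-2 libraries and 0.17 in dsUsh libraries, each against dsEGFP, while Klp61F had 0.03 and -0.56. mRRF1, which overlaps Klp67A, had 0.58 in dsUsh libraries and 0.44 in dsMi-2 libraries, where Klp67A had -0.83 and -0.21. CG1561, which overlaps nod, had -1.28 in dsUsh libraries at 6.9 to 36.2 normalised counts in the first experiment, and ab, which overlaps cmet, had -0.45 at 12.5 to 37.0. Ir54a, which overlaps sub, had -0.70 in dsUsh libraries at 3.2 to 9.0 normalised counts, where sub had -0.57. CG44385, which overlaps Klp10A, had 0.03 at 8.0 to 20.3, and CG34456, which overlaps Klp67A, reached at most 4.0 and was not tested. The values of CG7789 and ca stand with those of ncd above.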
